A study of Mus musculus with 12 samples.

Results

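Spleens of ICR mice given busulfan alone were compared with spleens of untreated control mice of the same strain, all 8 weeks old, with 3 RNA libraries per group. The genes described are those with a mean of at least 1 FPKM (fragments per kilobase of transcript, scaled to the mapped fragments of a library) in either group, which holds for 12991 of the 21004 genes in the deposited table. Around that limit 158 of the genes kept lay within 0.1 FPKM above it and 220 of those left out within 0.1 FPKM below it. The series also holds 3 libraries of an L.J. group, at 10 mg/kg, and 3 of a group that had busulfan with L.J. at 10 mg/kg, which are used here to estimate the spread and to ask whether the busulfan difference was also seen beside L.J. The labels spell out neither L.J. nor the dose of busulfan nor the time from treatment to collection, and name no treatment of the control mice. The design text of the series speaks of FMT, which no label ties to a library, so whether any group had it is unknown here. Whether each library is a different mouse is not stated, so p-values measure the spread between these libraries, which may be technical.

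Busulfan is an alkylating drug that crosslinks DNA and kills dividing and stem cells, and it is used to clear the bone marrow before transplantation and to empty the testis of germ cells. The mouse spleen filters old red cells in its red pulp, holds B and T lymphocytes in its white pulp, and, unlike the adult human spleen, still makes red cells, platelets and granulocytes. Damage to blood-forming cells can therefore show both in the lymphocytes that live in the spleen and in the blood cells that are made there.

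Among the 12991 genes 4 were called, 2 higher (Slpi and Prg2) and 2 lower (Slc34a1 among them) with busulfan, at a limma adjusted p below the 0.05 threshold over all 13138 genes tested. The 2 genes called higher are 0.0154% of the genes compared, and the 2 called lower are 0.0154%. Slpi, a secreted inhibitor of neutrophil elastase and cathepsin G (gene 20568, chromosome 2, 164354070 to 164356507 on GRCm38.p6), had 48.2, 40.9 and 59.9 FPKM in control libraries 1 to 3 and 1123, 624 and 253 FPKM in busulfan libraries 1 to 3. Each busulfan library was above every control, and busulfan 3 was the lowest of its group. Slpi rose 13.4-fold by the ratio of group means, with a log2 difference of 3.49 by limma (SE 0.42, adjusted p = 0.0248). Prg2, the major basic protein of eosinophil granules (gene 19074, chromosome 2, 84980461 to 84983632), had 4.64, 3.78 and 2.06 FPKM in the controls and 56.9, 33.8 and 19.7 FPKM with busulfan. The groups were apart in the same order of libraries. Prg2 rose 10.5-fold, with a log2 difference of 2.99 by limma (SE 0.38, adjusted p = 0.0285).

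Slc34a1, the sodium-dependent phosphate transporter of the kidney proximal tubule (gene 20505, chromosome 13, 55399622 to 55414695), fell 6.91-fold from 4.38, 2.69 and 2.21 FPKM to 0.47, 0.41 and 0.46 FPKM, with a log2 difference of -1.47 by limma (SE 0.19, adjusted p = 0.0309). It had 0.4, 0.22 and 0.46 FPKM with L.J. and 0.6, 0.24 and 0.4 FPKM with busulfan and L.J., so that the 3 controls were above all 9 other libraries. The scores of the liver list and of the kidney list, which holds Slc34a1 itself, were also lower with busulfan. They are mean log2(FPKM + 1) over the 27 of 33 liver and 12 of 32 kidney genes that passed the limit. Slc34a1 passed it through the controls only. The liver scores were 1.92, 3.18 and 2.37 in the controls and 1.55, 1.49 and 1.14 with busulfan, and the kidney scores 2.72, 2.39 and 2.54 in the controls and 2.28, 1.91 and 1.73 with busulfan. Over all 32 kidney genes the share of the FPKM sum overlapped between groups. It was 0.0353, 0.0223 and 0.0286% in the controls and 0.03, 0.0215 and 0.0202% with busulfan. The part of liver or kidney tissue in the lower values of Slc34a1 and both lists was not tested. None of the 4 called genes passed the threshold in limma fits of the 6 libraries alone, without control 2, or with the score of pancreatic acinar genes as a covariate, where 0 genes were called and 895, 1534 and 361 genes had an unadjusted p below 0.05.

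**Figure D1:**
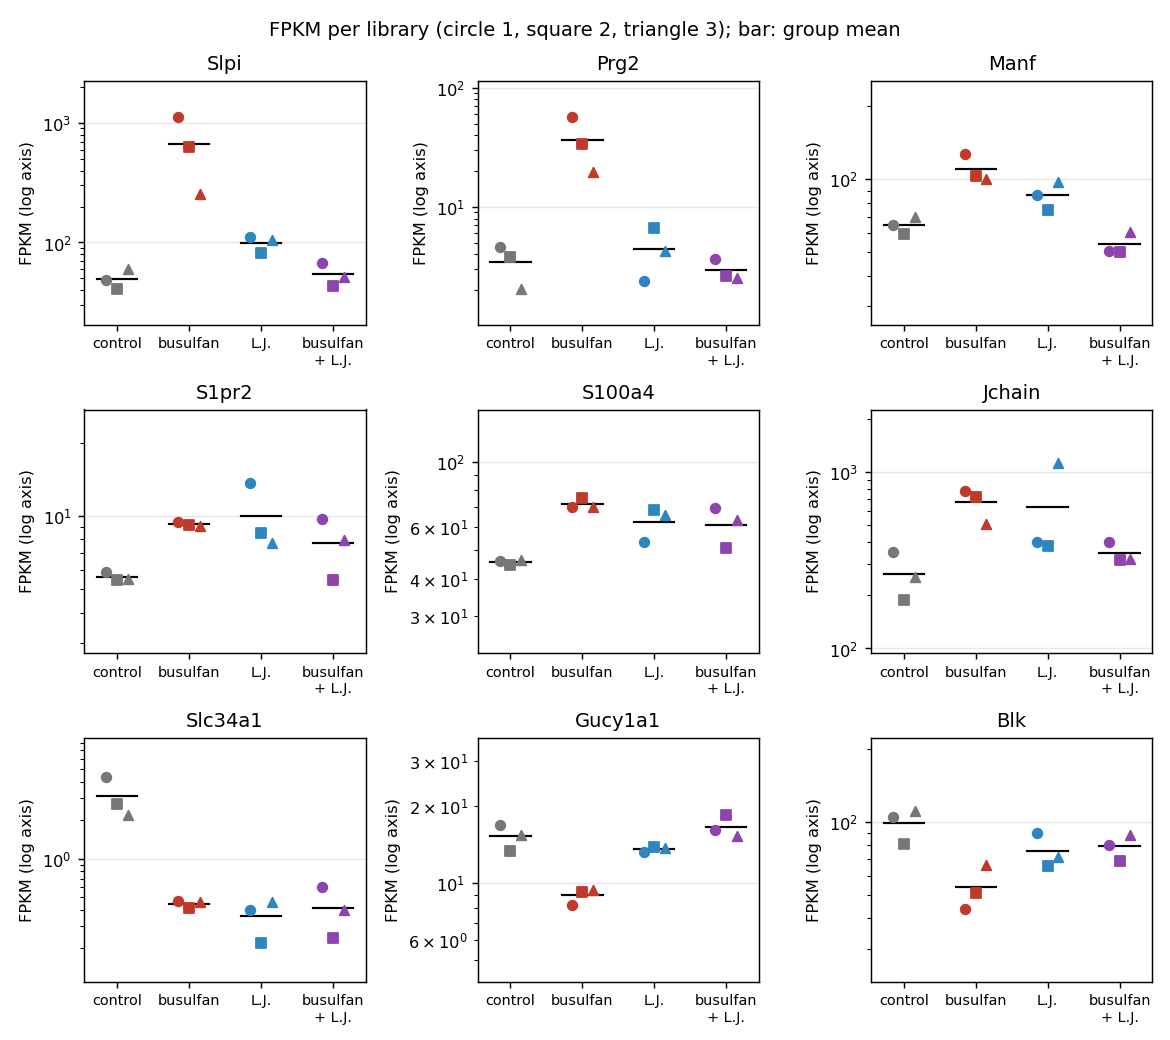
FPKM (log axis) of 9 genes in each library of the 4 groups, with circles, squares and triangles for libraries 1, 2 and 3 and a bar at the group mean. Slpi and Prg2 are high in the busulfan group only, from 253 to 1123 FPKM and from 19.7 to 56.9 FPKM, whereas Slc34a1 is high in the control group only, from 2.21 to 4.38 FPKM.

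Beyond the called genes, an unadjusted p below 0.05 was reached by 751 genes that were higher with busulfan (5.78%) and 846 that were lower (6.51%). A log2 difference above 0 was found in 5798 genes (44.6%), and the median over all genes was -0.03. In 737 genes (5.67%) all 3 busulfan libraries were above all 3 controls, and in 945 (7.27%) they were all below. These percentages are the background for the counts by gene list that follow. The lists were written by hand and are described by counts and medians, with no test of a list. The busulfan libraries were unequal. A distance of more than 1 on the log2 scale above the control mean was reached by 647 genes in busulfan 1, by 286 in busulfan 2 and by 101 in busulfan 3, and below it by 431, 145 and 138 genes. Among the 737 genes that were higher without overlap, busulfan 3 was the lowest of its group in 503 (68.2%), and among the 945 that were lower it was the nearest to the controls in 441 (46.7%). When each of the 6 libraries was left out in turn, the count of called genes was 829 without busulfan 3, with 547 higher (4.14% of 13214 tested) and 282 lower (2.13%), and between 0 and 12 without another library. The 3 busulfan libraries correlated with each other at 0.962 to 0.982 and the controls at 0.985 to 0.993 over all genes on the log2 scale. Over the whole series the FPKM of a library add up to between 511876 and 580364. The files hold no read counts, so depth is unknown and no counting error is given.

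Transcripts of the exocrine pancreas, whose tail lies against the spleen, also set the busulfan libraries apart and are given beside the gene groups that moved with them. Amy2a5, the pancreatic amylase, had 0, 0 and 0.25 FPKM in the controls and 19029.7, 1484 and 55.8 FPKM with busulfan. The list of 40 acinar genes made up 10.8, 1 and 0.0467% of the FPKM sum in busulfan 1 to 3 and at most 0.004% in a control. Its score is the mean log2(FPKM + 1) of the 35 genes that passed the limit. It was 8.75, 5.27 and 2.02 with busulfan and 0.39, 0.38 and 0.38 in the controls. The score used as a covariate covers all 40 genes. It was 7.697, 4.67 and 1.786 with busulfan and 0.342, 0.333 and 0.345 in the controls. Busulfan 1 was thus the highest and busulfan 3 the lowest for acinar genes, the same order as for Slpi and Prg2. Counts in which a gene list passed the limit through its higher group only, as most of these acinar genes did, describe the list and support no test. In control 3 the spermatid genes Tnp1, a transition protein, and Prm2, a protamine, were at 44.6 and 94.9 FPKM, against at most 4.93 FPKM in the other 5 libraries. Spleen markers were present in all 6 libraries. Cd79a, a chain of the B cell receptor, had 1732, 1640.0 and 1884 FPKM in the controls and 649, 999 and 1694 FPKM with busulfan.

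Among the blood cell lists, neutrophil genes had the largest medians. Neutrophils store elastase-like proteases in primary granules made early in the marrow, and lactoferrin, lipocalin and cathelicidin in granules made later. Of 16 genes of neutrophil precursors and primary granules, all 16 had a log2 difference above 0, with a median of 2.36, and in 9 the groups did not overlap. Of 34 genes of later granules and mature neutrophils, 33 were above 0, with a median of 2.29, and 25 did not overlap. Slpi was the only member of these lists among the called genes. Mpo, the myeloperoxidase, had 15.4, 11 and 9.77 FPKM in the controls and 768, 241 and 19.7 FPKM with busulfan, a log2 difference of 3.61 by limma (SE 1.02, adjusted p = 0.253). Elane, neutrophil elastase, had 16.6, 9.83 and 9.82 FPKM against 790.3, 220.3 and 22.3 FPKM, a difference of 3.65 by limma (SE 1.01, adjusted p = 0.244). Fcnb, the ficolin of granulocytes, had 5.65, 3.21 and 4.04 FPKM against 92, 50.7 and 8.4 FPKM (log2 difference 2.77, limma adjusted p = 0.223). All 3 were apart between groups, but busulfan 3 lay close above the controls while busulfan 1 and 2 were many times higher. None of them was called.

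Genes of the later granules had the same order of libraries. Lcn2, the siderophore-binding lipocalin, had 39.4, 28.4 and 25.2 FPKM in the controls and 1773, 544 and 62.5 FPKM with busulfan (log2 difference 3.65, limma adjusted p = 0.229). S100a9, a subunit of calprotectin, had 377, 316 and 272 FPKM against 11762, 6086 and 622 FPKM (log2 difference 3.47, limma adjusted p = 0.211). In both the groups did not overlap and neither was called. BC100530, a stefin-like protease inhibitor, was listed at 0, 0.56 and 0.51 FPKM in the controls and at 788, 279 and 9.1 FPKM with busulfan, and Stfa2, another stefin, at 0, 0.22 and 0.23 FPKM in the controls and 335, 159 and 6.54 FPKM with busulfan. Stefin genes are near-identical copies, so how their reads were shared is uncertain. BC100530 and Stfa2 passed the limit of 1 FPKM through the busulfan group only. Cxcr2, the chemokine receptor that draws neutrophils out of the marrow, had 19.5, 18.1 and 17.3 FPKM against 39.4, 38.3 and 21.4 FPKM, a log2 difference of 0.77 by limma (SE 0.19, adjusted p = 0.187), smaller in value than those of the granule genes. Tarm1, a receptor of neutrophils chosen by its small p and in neither list, had 0.45, 0.21 and 0.15 FPKM against 5.95, 4.8 and 1.49 FPKM (log2 difference 1.88, limma adjusted p = 0.103).

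The neutrophil scores had the order of the acinar scores. For primary granules the scores were 7.16, 5.66 and 3.62 in busulfan 1 to 3 against 3.39, 3.05 and 3.19 in the controls. For later granules they were 7.14, 6.19 and 3.62 against 3.17, 2.95 and 2.92. With the acinar score as a covariate the medians of both lists were 0.58 and 0.87. That score was higher in every busulfan library than in every control, so here and below this fit cannot fully separate it from busulfan. Without busulfan 1, busulfan 2 and L.J. 3, the libraries with the highest acinar scores, the medians were 0.46 and 0.55. That fit, here and below, leaves busulfan 3 alone in its group. Without busulfan 3, 15 of 16 and 32 of 34 genes were called higher. Another library, L.J. 3, had an acinar score of 5.92, above that of busulfan 2, and a later granule score of 3.22, close to the controls. In bulk tissue, more or fewer cells of a type and more or less RNA per cell cannot be told apart.

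Eosinophil genes had a smaller median than neutrophil genes, and their score in busulfan 3 was above every control, as it also was for both neutrophil lists. Of 9 genes, 7 were above 0, with a median of 0.92, and 4 did not overlap. Epx, eosinophil peroxidase, had 0.55, 0.25 and 0.23 FPKM in the controls and 8.82, 3.88 and 1.93 FPKM with busulfan (log2 difference 1.96, SE 0.34, limma adjusted p = 0.105). Ear6, a ribonuclease of eosinophils, had 1.33, 0.7 and 0.76 FPKM against 6.03, 3.95 and 2.71 FPKM (log2 difference 1.40, limma adjusted p = 0.113), and Ear1, a related gene, 1.66, 1.51 and 1.62 against 11.3, 5.09 and 2.51 FPKM. Genes of this family are alike in sequence, so the split of reads between them is uncertain. The granule genes Prg2, Epx, Ear6 and Ear1 were the 4 without overlap. Of these, Epx and Ear6 passed the limit of 1 FPKM through the busulfan group only, so their part of the count supports no test. Il5ra, the interleukin 5 receptor, which B cells of the mouse also carry, went the other way in value, with 5.05, 4.39 and 5.69 FPKM against 2.03, 1.97 and 4.83 FPKM (log2 difference -0.69, limma adjusted p = 0.329). The eosinophil score was 3.24, 2.92 and 2.56 in busulfan 1 to 3 and 2.15, 1.75 and 1.79 in the controls, and its median was 0.35 with the acinar covariate. Among 8 mast cell and basophil genes, Mcpt8, a basophil protease, had 2.28, 0.9 and 1.4 FPKM against 13.7, 9.78 and 1.41 FPKM (log2 difference 1.56, limma adjusted p = 0.314), with busulfan 3 among the controls.

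Promoter windows of 300 bases, 250 before to 50 after the start, come from RefSeq on GRCm38.p6, the assembly of mm10, and were found for 10348 of the 12991 genes. Those of Elane and Ear6 stand for 2 lists whose members held different motifs. The first sequence is the Elane window, chr10:79886062-79886361, and the second that of Ear6, chr14:51853518-51853817, both on the plus strand, 5′ to 3′, with the motif in capitals.
Elane: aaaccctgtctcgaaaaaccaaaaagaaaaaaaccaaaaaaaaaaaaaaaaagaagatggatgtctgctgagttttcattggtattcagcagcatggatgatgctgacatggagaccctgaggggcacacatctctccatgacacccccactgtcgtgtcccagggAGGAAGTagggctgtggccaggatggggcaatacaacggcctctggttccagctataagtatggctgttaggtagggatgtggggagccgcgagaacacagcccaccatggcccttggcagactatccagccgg
Ear6: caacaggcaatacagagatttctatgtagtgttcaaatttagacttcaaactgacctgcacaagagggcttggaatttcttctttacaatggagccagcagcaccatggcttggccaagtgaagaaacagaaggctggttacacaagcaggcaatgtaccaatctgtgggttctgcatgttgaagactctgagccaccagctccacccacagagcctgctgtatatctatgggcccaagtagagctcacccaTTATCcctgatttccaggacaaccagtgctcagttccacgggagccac
The capitals in Elane mark AGGAAGT, the core bound by ETS factors such as PU.1 in myeloid cells, searched on both strands. It stood in 6 of 11 primary granule genes with a window (54.5%), among them Mpo, Prtn3 and Ctsg, and in 11.1% of all 10348. It also stood in 9 of 31 genes of mature neutrophils (29%) and in 6 of 22 B cell genes (27.3%), a list that was lower in value. The capitals in Ear6, TTATC, mark GATAA on the other strand, the core of GATA factors such as GATA1, which eosinophils need. It stood in 6 of 7 eosinophil genes with a window, in 0 of 11 primary granule genes, in 12 of 31 genes of mature neutrophils (38.7%) and in 20.2% of all. The eosinophil genes holding it include Il5ra, which was lower in value, and the called gene Prg2 had no window. Ear1 and Ear6, also among the holders, are of a family alike in sequence, so their matches are not independent. In Ear6 the match lies after the start. The motifs were chosen after matches had been looked at, and a match is a description of letters, not of a site or a cause.

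**Figure D2:**
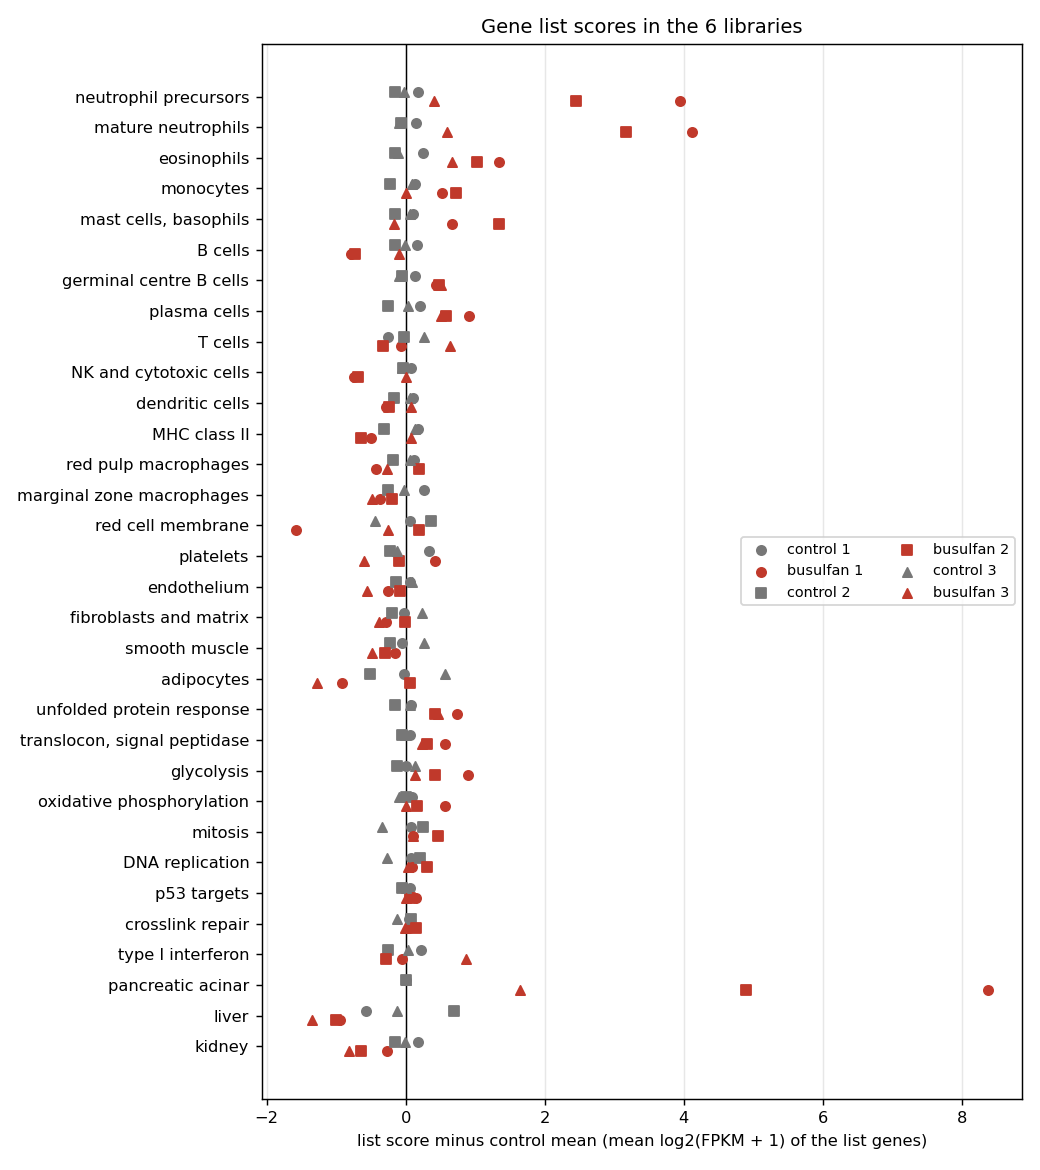
Score of each gene list (mean log2(FPKM + 1) of its genes) minus the control mean, on the horizontal axis, for the 3 control libraries (grey) and the 3 busulfan libraries (red). Neutrophil lists have busulfan 1 far to the right, busulfan 2 between and busulfan 3 near the controls though to the right of them. Germinal centre, plasma cell and unfolded protein response lists also have all 3 busulfan libraries to the right of the controls.

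B cell genes had the lowest median among the lymphocyte lists. All 29 B cell genes had a log2 difference below 0, with a median of -0.59, and in 11 the groups did not overlap. Blk, a kinase of the B cell receptor, had 104, 81.1 and 111 FPKM in the controls and 43.9, 51 and 66.4 FPKM with busulfan (log2 difference -0.87, SE 0.18, limma adjusted p = 0.153). Fcrla, an Fc receptor-like protein inside B cells, had 79.7, 62.1 and 69.4 FPKM against 35.6, 31.8 and 57 FPKM (log2 difference -0.79, limma adjusted p = 0.198). Siglecg, an inhibitory receptor of B1 cells, had 143, 119 and 134 FPKM against 63.1, 70.7 and 108 FPKM (log2 difference -0.74, limma adjusted p = 0.21). In each of these genes busulfan 3 was the nearest to the controls. The B cell score was 6.06, 6.11 and 6.74 with busulfan against 7.0, 6.69 and 6.83, so that busulfan 3 lay inside the control range. Without busulfan 3, 20 of 29 genes were called lower, and the median was -0.22 with the acinar covariate.

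MHC class II genes, which B cells and dendritic cells share, were below 0 in 11 of 12, with a median of -0.38. Ciita, the master regulator of these genes, had 39.1, 31.1 and 38.3 FPKM against 22.3, 23.9 and 33.6 FPKM (log2 difference -0.44, limma adjusted p = 0.3), and H2-DMb2, a peptide-loading subunit, 284, 265 and 299 against 156, 177 and 249.8 FPKM (log2 difference -0.57, limma adjusted p = 0.299). Their median came to -0.07 when the acinar score was a covariate and to -0.03 without busulfan 1, busulfan 2 and L.J. 3. Of the lower genes H2-DMb2 alone had groups that did not overlap. Of 14 genes of class I processing, 8 were above 0, with a median of 0.06 and none without overlap. The 4 precursor B cell genes had a median of -0.25.

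Germinal centre genes had higher scores in all 3 busulfan libraries than in any control. Germinal centre B cells divide in the follicles and are selected by follicular helper T cells. Of 12 genes, 10 were above 0, with a median of 0.52, and in 7 the groups did not overlap. S1pr2, the receptor that keeps B cells inside the germinal centre, had 5.87, 5.45 and 5.48 FPKM in the controls and 9.44, 9.14 and 9.06 FPKM with busulfan (log2 difference 0.63, SE 0.20, limma adjusted p = 0.28). Gcsam, a signalling protein of these cells, had 7.1, 7.76 and 6.34 FPKM against 10.9, 10.4 and 10.1 FPKM (log2 difference 0.51, limma adjusted p = 0.329). The 3 busulfan values of each gene lay closer together in FPKM than its 3 control values, with busulfan 3 level with the others. The score was 3.42, 3.46 and 3.49 with busulfan and 3.12, 2.93 and 2.88 in the controls, without the order of the acinar scores. Its median came to 0.65 when the acinar score was a covariate and to 0.61 without busulfan 1, busulfan 2 and L.J. 3. S1pr2 had 13.7, 8.46 and 7.71 FPKM with L.J. alone, also above the controls. None of the 12 genes was called.

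Plasma cell genes, of cells that secrete antibody, were above 0 in 15 of 18, with a median of 0.59 and 10 without overlap. Creld2 and Derl3 are in this list and also in that of the unfolded protein response, so the counts of both lists are not independent. Jchain, which links the antibodies of IgM and IgA, had 353, 188 and 255 FPKM in the controls and 779.6, 722 and 509 FPKM with busulfan (log2 difference 1.36, SE 0.38, limma adjusted p = 0.235). Sdc1, the surface marker CD138, had 5.64, 3.93 and 5.44 FPKM against 10.0, 8.57 and 7.94 FPKM (log2 difference 0.72, limma adjusted p = 0.288). Xbp1, the transcription factor of secretory cells, had 58.4, 41.2 and 54.9 FPKM against 174, 134 and 85 FPKM (log2 difference 1.29, SE 0.28, limma adjusted p = 0.167). All 3 genes were apart between groups. Irf4, a transcription factor of plasma cells and activated lymphocytes, had 24.2, 17.2 and 23.6 FPKM against 25.3, 23.4 and 25.3 FPKM (log2 difference 0.19, limma adjusted p = 0.578), with overlap. Acinar cells also express Xbp1 and other genes of secretion, and the list median came to 0.15 when the acinar score was a covariate and to 0.44 without busulfan 1, busulfan 2 and L.J. 3.

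Natural killer and cytotoxic genes were below 0 in 22 of 25, with a median of -0.43 and 9 without overlap. Klrb1c, the NK1.1 receptor, had 3.43, 3.04 and 2.66 FPKM in the controls and 0.85, 0.39 and 1.51 FPKM with busulfan (log2 difference -1.11, SE 0.22, limma adjusted p = 0.135). Ncr1, the activating receptor NKp46, had 11.1, 10.6 and 7.72 FPKM against 2.45, 2.42 and 7.46 FPKM (log2 difference -1.20, limma adjusted p = 0.215). Gzma, granzyme A, had 52.7, 48 and 32.4 FPKM against 9.19, 9.41 and 31.1 FPKM (log2 difference -1.56, limma adjusted p = 0.239). Busulfan 1 and 2 were low for Ncr1 and Gzma while busulfan 3 lay just under the lowest control. The scores of 2.10, 2.16 and 2.86 with busulfan and 2.93, 2.81 and 2.80 in the controls show the same split, the median was -0.05 with the acinar covariate, and with busulfan 3 left out 9 of 25 genes were called lower. T cell genes were above 0 in 20 of 29, with a median of 0.12, 1 without overlap, and a median of -0.20 without busulfan 3. That gene was Ctla4, the inhibitory receptor of regulatory and activated T cells, with 3.64, 2.98 and 4.66 FPKM in the controls and 5.51, 5.8 and 5.66 FPKM with busulfan (log2 difference 0.50, limma adjusted p = 0.28).

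Among the myeloid cells of the spleen the values were mixed. S100a4, a calcium-binding protein of monocytes and other motile cells, had 45.9, 44.7 and 46.5 FPKM in the controls and 70.2, 75.1 and 70.4 FPKM with busulfan, a log2 difference of 0.64 by limma (SE 0.13, adjusted p = 0.136). Both groups were tight and did not overlap. Ifitm3, an antiviral membrane protein, had 246, 201 and 251 FPKM against 439.6, 416 and 315 FPKM (log2 difference 0.73, limma adjusted p = 0.167). Monocyte genes were above 0 in 11 of 19, with a median of 0.36 and 3 without overlap, and a median of 0.00 with the acinar covariate. Dendritic cell genes were above 0 in 7 of 20, with a median of -0.08. Siglech, a receptor of plasmacytoid dendritic cells, had 14.9, 13.9 and 18.9 FPKM against 3.6, 2.21 and 13.3 FPKM (log2 difference -1.49, limma adjusted p = 0.261), with busulfan 3 just below the controls. Clec9a, a receptor for dead cells on cross-presenting dendritic cells, had 5.21, 4.51 and 5.66 FPKM against 2.5, 3.27 and 4.99 FPKM (log2 difference -0.45, limma adjusted p = 0.35).

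Macrophages of the red pulp, which recycle iron from old red cells, had a median of -0.10 over 25 genes, of which 5 were above 0 and 1 was lower without overlap. That gene was Trf, transferrin, with 53.9, 55 and 58.9 FPKM in the controls and 35.9, 52 and 33.1 FPKM with busulfan (log2 difference -0.49, limma adjusted p = 0.264). Macrophages of the marginal zone, which take up particles from blood, had a median of -0.30 over 9 genes. Marco, their scavenger receptor, had 148, 79.6 and 94.4 FPKM against 38.3, 54.5 and 31.4 FPKM (log2 difference -1.34, SE 0.34, limma adjusted p = 0.211), and all 3 busulfan libraries were below the controls with busulfan 3 the lowest. Cd209c, a lectin of the same family as SIGN-R1, had 14.3, 13.3 and 13.4 FPKM against 7.73, 11.9 and 10.3 FPKM (log2 difference -0.44, limma adjusted p = 0.369).

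Genes for chaperones of the endoplasmic reticulum had higher scores in all 3 busulfan libraries than in any control. Cells that secrete much protein, and cells under stress, raise these genes through XBP1 and ATF6 in the unfolded protein response. Of 28 genes, 26 were above 0, with a median of 0.50, and in 19 the groups did not overlap, against 5.67% of all genes. Manf, a secreted protein of the response, had 64.7, 59.6 and 69.7 FPKM in the controls and 127, 103 and 101 FPKM with busulfan (log2 difference 0.76, SE 0.14, limma adjusted p = 0.115). Creld2, a disulfide isomerase-like protein, had 33, 26.7 and 36.1 FPKM against 91.9, 72.3 and 75.1 FPKM (log2 difference 1.30, limma adjusted p = 0.124). Derl3, which takes part in the export of misfolded proteins, had 12.5, 7.05 and 13.6 FPKM against 47.1, 33.2 and 29.1 FPKM (log2 difference 1.66, limma adjusted p = 0.135). In each of them every busulfan library was above every control, and Creld2 and Derl3 are counted in the plasma cell list too. Hspa5, the chaperone BiP, had 279.7, 270.2 and 279 FPKM against 354, 351 and 441 FPKM (log2 difference 0.46, limma adjusted p = 0.261), and Hsp90b1, the chaperone GRP94, 427, 346 and 396 against 594, 578 and 771 FPKM (log2 difference 0.72, limma adjusted p = 0.211). For these 2 genes busulfan 3, with the least acinar RNA of the busulfan libraries though more than any control, was the highest of the 6.

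The score of the response was 6.29, 5.97 and 6.01 with busulfan and 5.63, 5.39 and 5.61 in the controls. Its median was 0.25 with the acinar covariate, 0.42 without busulfan 1, busulfan 2 and L.J. 3 and 0.56 without busulfan 3, when 10 of 28 genes were called higher. Signal peptidase, translocon and glycosylation genes, which carry new proteins into the endoplasmic reticulum, were above 0 in 25 of 26, with a median of 0.40 and 17 without overlap. Ssr3, of the translocon, had 84.8, 76.4 and 80.3 FPKM against 116, 109 and 99.8 FPKM (log2 difference 0.42, limma adjusted p = 0.167). Srp9, of the signal recognition particle, had 40.5, 40.8 and 40.9 FPKM against 65.4, 57.5 and 53.1 FPKM (log2 difference 0.51, limma adjusted p = 0.177). Spcs2, of the signal peptidase, had 70.0, 58.7 and 60.9 FPKM against 115, 87.8 and 86.1 FPKM (log2 difference 0.59, limma adjusted p = 0.207). The median of that list was 0.14 with the acinar covariate.

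The promoters of Hspa5, Creld2 and Derl3 hold the endoplasmic reticulum stress element, the sequence that ATF6 with NF-Y binds, and are printed as those of 3 response genes whose groups did not overlap. Windows are from RefSeq on GRCm38.p6, plus strand, 5′ to 3′, at chr2:34771840-34772139, chr15:88819396-88819695 and chr10:75893148-75893447, with capitals on the element, CCAAT followed after 9 bases by CCACG. It lies on the printed strand in Hspa5 and on the other strand in Creld2 and Derl3, where it reads CGTGG followed after 9 bases by ATTGG.
Hspa5: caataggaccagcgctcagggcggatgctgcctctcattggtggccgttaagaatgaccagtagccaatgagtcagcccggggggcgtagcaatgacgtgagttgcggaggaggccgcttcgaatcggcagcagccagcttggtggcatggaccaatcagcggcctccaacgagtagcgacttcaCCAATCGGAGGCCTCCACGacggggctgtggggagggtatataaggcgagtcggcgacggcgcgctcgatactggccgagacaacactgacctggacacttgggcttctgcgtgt
Creld2: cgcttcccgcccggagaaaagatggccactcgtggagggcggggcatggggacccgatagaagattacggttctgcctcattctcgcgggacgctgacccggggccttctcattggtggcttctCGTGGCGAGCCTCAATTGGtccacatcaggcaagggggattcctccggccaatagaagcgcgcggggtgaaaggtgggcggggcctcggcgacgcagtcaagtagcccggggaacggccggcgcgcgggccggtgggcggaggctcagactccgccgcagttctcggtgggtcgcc
Derl3: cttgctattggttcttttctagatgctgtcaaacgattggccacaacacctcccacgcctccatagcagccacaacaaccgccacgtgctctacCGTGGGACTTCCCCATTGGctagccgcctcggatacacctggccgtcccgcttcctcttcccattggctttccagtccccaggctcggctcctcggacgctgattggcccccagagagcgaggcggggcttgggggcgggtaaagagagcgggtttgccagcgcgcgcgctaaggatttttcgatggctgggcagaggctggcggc
Of 24 genes of the response with a window, 8 held the element (33.3%), namely Hspa5, Creld2, Derl3, Hsp90b1, Calr, Pdia6, Dnajc3 and Syvn1, against 19 of all 10348 genes (0.184%). Lists and motifs were both written from knowledge of this pathway, so the share describes the list. Of these 8 genes, Calr and Syvn1 had overlapping groups, with log2 differences of 0.19 and -0.16. A related element, which shares CCACG and has ATTGG before it with 1 base between, stood in Dnajb11 and Herpud1 among the response genes and in 0.087% of all genes. Dnajb11 had a log2 difference of 0.44 and Herpud1 of 0.54, both without overlap.

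Glycolysis genes were above 0 in 20 of 22, with a median of 0.56 and 10 without overlap. Gapdh, often used as a reference gene, had 942, 933 and 1092 FPKM in the controls and 1673, 1528 and 1312 FPKM with busulfan (log2 difference 0.60, SE 0.16, limma adjusted p = 0.211). Pkm, pyruvate kinase, had 178, 147 and 193 FPKM against 412, 251 and 237 FPKM (log2 difference 0.76, limma adjusted p = 0.211), and Pgk1, phosphoglycerate kinase, 58.2, 54.6 and 60.1 against 146, 79.4 and 76.7 FPKM (log2 difference 0.73, limma adjusted p = 0.235). The groups were apart in each, with busulfan 1 the highest. The score was 5.65, 5.18 and 4.90 against 4.76, 4.64 and 4.89, and the median was 0.07 with the acinar covariate. The pentose phosphate enzymes Pgd and G6pdx make the NADPH that the neutrophil oxidase uses. They had log2 differences of 1.09 and 1.07, and busulfan 3 lay inside the control range for both. G6pdx had 28.8, 27.7 and 32.5 FPKM in the controls and 122, 68.7 and 29.7 FPKM with busulfan.

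Oxidative phosphorylation genes were above 0 in 46 of 48, with a median of 0.20, 4 without overlap and a median of -0.11 with the acinar covariate. Ndufv2, a subunit of complex I, had 38, 38.6 and 31.2 FPKM against 53.1, 48 and 40.6 FPKM (log2 difference 0.38, limma adjusted p = 0.299). Ribosomal protein genes were above 0 in 41 of 45, with a median of 0.08, and of -0.12 after quantile normalization. Cholesterol synthesis genes had a median of 0.15 over 23 genes and fatty acid oxidation genes 0.01 over 19.

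Red cell genes were lower in value, mostly through busulfan 1. All 20 genes of the red cell membrane and skeleton were below 0, with a median of -0.59, yet in none of them were the groups apart. Rhd, a blood group protein, had 87.9, 108 and 54.5 FPKM in the controls and 25.1, 79.1 and 50.3 FPKM with busulfan (log2 difference -0.78, limma adjusted p = 0.444). Sptb, spectrin, had 28.7, 31.9 and 17.5 FPKM against 8.39, 23.3 and 18.2 FPKM (log2 difference -0.68, limma adjusted p = 0.476). Busulfan 1 was the lowest for both and another busulfan library lay inside the control range. Of 19 genes of haem synthesis, iron uptake and globins, 16 were below 0, with a median of -0.38. Hba-a1, an alpha globin gene with a near-identical copy, had 65044, 83203 and 48310.3 FPKM against 20091, 56079 and 58069 FPKM (log2 difference -0.67, limma adjusted p = 0.495). The 17 erythroid regulators had a median of -0.26, and with the acinar covariate the medians of the 3 lists were 0.22, 0.28 and 0.12, opposite in sign.

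Bcl11a, the repressor of fetal globin that B cells also need, was the erythroid regulator whose groups were apart, with 63.3, 56.8 and 55.6 FPKM in the controls and 26.9, 35.9 and 45.3 FPKM with busulfan (log2 difference -0.71, SE 0.15, limma adjusted p = 0.167). Platelet and megakaryocyte genes had a median of -0.05 over 22 genes, 7 of them above 0 and 3 lower without overlap. Nrgn, a calmodulin-binding protein of platelets, had 221, 162 and 194 FPKM against 113, 133 and 103 FPKM (log2 difference -0.72, limma adjusted p = 0.25), and Treml1, a platelet granule receptor, 23, 18.2 and 20.2 against 17.1, 13.8 and 14.2 FPKM (log2 difference -0.42, limma adjusted p = 0.377). Blood stem and progenitor genes had a median of -0.02 over 16 genes, of 0.21 without busulfan 3 and of -0.40 without busulfan 1, busulfan 2 and L.J. 3. Of these genes 1 was higher and 3 were lower without overlap. Sox4, a transcription factor of progenitors and precursor B cells, was among the lower, with 6.17, 5.84 and 6.63 FPKM in the controls and 3.72, 4.07 and 5.2 FPKM with busulfan (log2 difference -0.44, limma adjusted p = 0.348), as were Spns2 and Smim24. Kit, the stem cell factor receptor, had 6.95, 7.06 and 6.71 FPKM against 8.7, 11.2 and 7.18 FPKM (log2 difference 0.32, limma adjusted p = 0.35), the member that was higher.

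Vessel and stromal genes were lower in value in most members of their lists. Gucy1a1, the alpha subunit of the nitric oxide receptor guanylate cyclase, had 16.9, 13.3 and 15.4 FPKM in the controls and 8.23, 9.22 and 9.42 FPKM with busulfan, a log2 difference of -0.70 by limma (SE 0.11, adjusted p = 0.052). Each busulfan library was well below each control. Edaradd, an adaptor of the ectodysplasin receptor, had 5.49, 4.36 and 3.9 FPKM against 2.32, 2.13 and 2.23 FPKM (log2 difference -0.78, SE 0.12, limma adjusted p = 0.052). Postn, the matrix protein periostin, had 10.3, 14.2 and 11.9 FPKM against 5.19, 5.16 and 5.44 FPKM (log2 difference -1.06, SE 0.20, limma adjusted p = 0.115). All 3 genes were nearly equal across the busulfan libraries. Endothelial and sinusoid genes were below 0 in 28 of 30, with a median of -0.34 and 7 without overlap, against 7.27% of all genes. Stab2, the hyaluronan scavenger receptor of sinusoids, had 12.3, 12.8 and 14.2 FPKM against 8.71, 11.2 and 7.48 FPKM (log2 difference -0.49, limma adjusted p = 0.244), and Cdh5, the cadherin of endothelial junctions, 17.1, 12.5 and 15.1 against 8.8, 12 and 8.28 FPKM (log2 difference -0.58, limma adjusted p = 0.238).

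Fibroblast and matrix genes were below 0 in 24 of 27, with a median of -0.19 and 7 without overlap, and smooth muscle genes in 15 of 17, with a median of -0.44 and 5 without overlap. Col14a1, a collagen that binds fibrils, had 17.9, 19.2 and 22.8 FPKM in the controls and 11.5, 14.3 and 15.5 FPKM with busulfan (log2 difference -0.51, limma adjusted p = 0.167). Synpo2, an actin-binding protein of smooth muscle, had 8.78, 7.48 and 9.76 FPKM against 5.06, 6.23 and 6.8 FPKM (log2 difference -0.46, limma adjusted p = 0.229). The scores of the endothelial, matrix and smooth muscle lists overlapped between groups. Endothelial scores were 2.96, 3.13 and 2.66 with busulfan against 3.27, 3.07 and 3.30 in the controls. Matrix scores were 3.55, 3.82 and 3.44 against 3.80, 3.64 and 4.06, and smooth muscle scores 3.90, 3.76 and 3.58 against 4.01, 3.83 and 4.32. With the acinar covariate the medians of these lists were -0.46, -0.30 and -0.43, and without busulfan 1, busulfan 2 and L.J. 3 they were -0.56, -0.41 and -0.52. The 15 genes of nitric oxide and cyclic GMP signalling had a median of -0.20, and the 14 of lymphoid stroma -0.10. Adipocyte genes varied within both groups, with scores of 3.28, 2.79 and 3.88 in the controls against 2.39, 3.37 and 2.03 with busulfan and a median of -0.77. Scd1, the fatty acid desaturase, had 93.5, 80.4 and 104 FPKM against 59.9, 58.1 and 70.8 FPKM (log2 difference -0.55, limma adjusted p = 0.167).

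**Figure D3:**
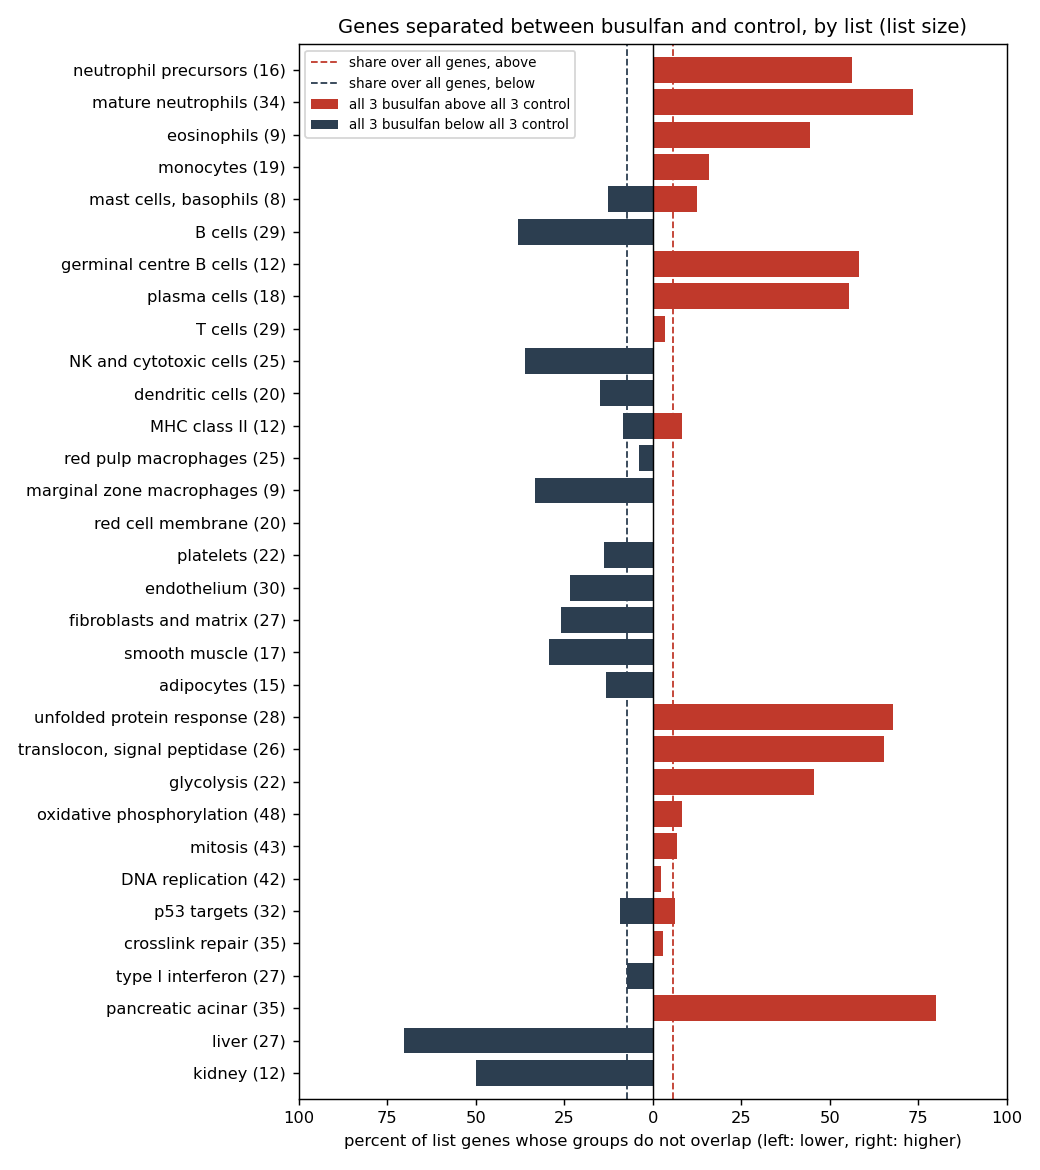
Percent of the genes of each list in which all 3 busulfan libraries were above (right) or below (left) all 3 controls, with list sizes in parentheses and dashed lines at the shares over all 12991 genes, 5.67% and 7.27%. The unfolded protein response, germinal centre, plasma cell and neutrophil lists lie far to the right of the dashed line, B cell, NK and liver lists far to the left, and p53 target, repair, replication and mitosis lists near it.

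Lists for the textbook responses to a DNA crosslinking agent had small medians and counts without overlap near the background. Of 32 p53 target genes, 18 were above 0, with a median of 0.08, 2 were higher and 3 lower without overlap, and the scores were 3.72, 3.63 and 3.57 with busulfan against 3.63, 3.52 and 3.57. Cdkn1a, the cell cycle inhibitor p21, had 15, 12.4 and 17.7 FPKM in the controls and 24.2, 22.3 and 20.1 FPKM with busulfan (log2 difference 0.54, SE 0.16, limma adjusted p = 0.259), with the groups apart. Mdm2, the ligase that degrades p53, had 23, 24.4 and 23.4 FPKM against 25.8, 24.4 and 25.7 FPKM (log2 difference 0.10, limma adjusted p = 0.678). Phlda3, a repressor of AKT, was lower in value, with 6.65, 6.67 and 6.45 FPKM against 5.01, 5.87 and 3.87 FPKM (log2 difference -0.37, limma adjusted p = 0.333). Crosslink repair and Fanconi genes were above 0 in 24 of 35, with a median of 0.09 and 1 without overlap. That gene was Ercc1, the partner of the XPF nuclease, with 9.39, 7.5 and 8.93 FPKM against 10.3, 10.6 and 10.1 FPKM (log2 difference 0.24, limma adjusted p = 0.541). Glutathione transferases, which detoxify busulfan, had a median of -0.02 over 19 genes, NRF2 targets -0.01 over 25 and BCL2 family genes 0.04 over 19. A difference that misses the threshold with 3 libraries a group does not show that these genes were equal.

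Genes of dividing cells were not lower in value with busulfan. Mitosis genes were above 0 in 40 of 43, with a median of 0.22 and 3 without overlap, and replication genes in 40 of 42, with a median of 0.13 and 1 without overlap. Ttk, a kinase of the spindle checkpoint, had 6.08, 5.68 and 4.29 FPKM in the controls and 8.21, 9.09 and 7.08 FPKM with busulfan (log2 difference 0.53, limma adjusted p = 0.251). Pold2, a subunit of DNA polymerase delta, had 17.4, 18.7 and 17.9 FPKM against 23.1, 23.4 and 21.4 FPKM (log2 difference 0.31, limma adjusted p = 0.264). Both were apart between groups. The mitosis scores were 4.71, 4.88 and 4.29 in the controls and 4.74, 5.09 and 4.74 with busulfan, and the replication scores 4.67, 4.81 and 4.33 in the controls and 4.69, 4.90 and 4.63 with busulfan. Control 3, the library with spermatid transcripts, was the lowest for both lists, and the other controls lay inside the busulfan range or close to it.

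Interferon genes split the busulfan libraries the other way, with busulfan 3 above busulfan 1 and 2. Genes induced by type I interferon had scores of 3.72, 3.48 and 4.63 in busulfan 1 to 3 and 3.99, 3.51 and 3.81 in the controls, with busulfan 3 the highest of the 6. They were above 0 in 20 of 27, with a median of 0.26, and of -0.16 without busulfan 3. Xaf1, an apoptosis factor induced by interferon, went lower in value, with 36.9, 27.1 and 59.7 FPKM in the controls and 15, 24.7 and 25.6 FPKM with busulfan (log2 difference -0.86, limma adjusted p = 0.288). Cxcl10, the chemokine of the CXCR3 receptor, had 21.8, 15.8 and 14.2 FPKM against 9.71, 6.36 and 12.6 FPKM (log2 difference -0.81, limma adjusted p = 0.305). These 2 were the genes of the list that were lower without overlap. GTPases induced by interferon gamma had a median of -0.14 over 16 genes, with no gene apart.

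Genes induced by glucocorticoids were above 0 in 15 of 18, with a median of 0.35, and had scores of 4.89, 4.71 and 3.71 in busulfan 1 to 3 against 3.79, 3.84 and 3.97. Fkbp5, a chaperone of the glucocorticoid receptor, had 8.46, 8.09 and 9.34 FPKM in the controls and 18.5, 15 and 8.72 FPKM with busulfan (log2 difference 0.59, limma adjusted p = 0.403). Mt1, a metallothionein, had 41.1, 46.3 and 45.2 FPKM against 257, 126 and 37.2 FPKM (log2 difference 1.25, limma adjusted p = 0.369). Busulfan 1 and 2 were above every control for both, and busulfan 3 was not. The list median was -0.13 with the acinar covariate. Socs3, the feedback inhibitor of cytokine receptors, had 9.45, 7.77 and 11.4 FPKM against 21.4, 14.5 and 13.5 FPKM (log2 difference 0.72, limma adjusted p = 0.235) and was apart between groups. Circadian genes had a median of 0.17 over 17 genes, and Bhlhe40, a repressor of the clock, had 10.2, 10.2 and 10.5 FPKM against 16.7, 15.7 and 11.9 FPKM (log2 difference 0.47, limma adjusted p = 0.229). The medians were -0.13 for 18 heat shock genes, -0.19 for 20 immediate early genes, -0.03 for 16 chemokines, 0.02 for 17 inflammatory cytokines, 0.05 for 21 Toll-like receptor genes and 0.00 for 21 complement genes, with at most 3 genes apart in either direction in each.

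Genes of other organs made up several of the widest differences. All 35 acinar genes were above 0, with a median of 5.68 and 28 without overlap. Ins2, for insulin, followed, with 273, 20.1 and 3.16 FPKM of Ins2 with busulfan and 0 listed in all 3 controls, and the islet list of 7 genes had a median of 1.54. Ins2 passed the limit of 1 FPKM through the busulfan group only. Liver genes were below 0 in 25 of 27, with a median of -1.18 and 19 without overlap. Alb, serum albumin, had 7.27, 34.2 and 14.7 FPKM in the controls and 2.34, 1.74 and 1 FPKM with busulfan (log2 difference -2.65, SE 0.41, limma adjusted p = 0.057). Mup3, a major urinary protein with near-identical copies, had 4.24, 22.2 and 7.51 FPKM against 1.36, 0.62 and 0.95 FPKM (log2 difference -2.37, limma adjusted p = 0.105). For both genes control 2 was the highest library. Kidney genes were below 0 in 9 of 12, with a median of -0.62 and 6 without overlap, Slc34a1 among them. Kap, the androgen-regulated protein of the proximal tubule, had 40.7, 18.4 and 21.6 FPKM against 7.8, 2.96 and 2.39 FPKM (log2 difference -2.42, SE 0.37, limma adjusted p = 0.052). Alb had 4.6, 3.22 and 5.73 FPKM and Kap 4.07, 4.16 and 3.47 FPKM with L.J. alone, below the control mean as with busulfan. The spleen list itself was below 0 in 11 of 14 genes, with a median of -0.32.

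**Figure D4:**
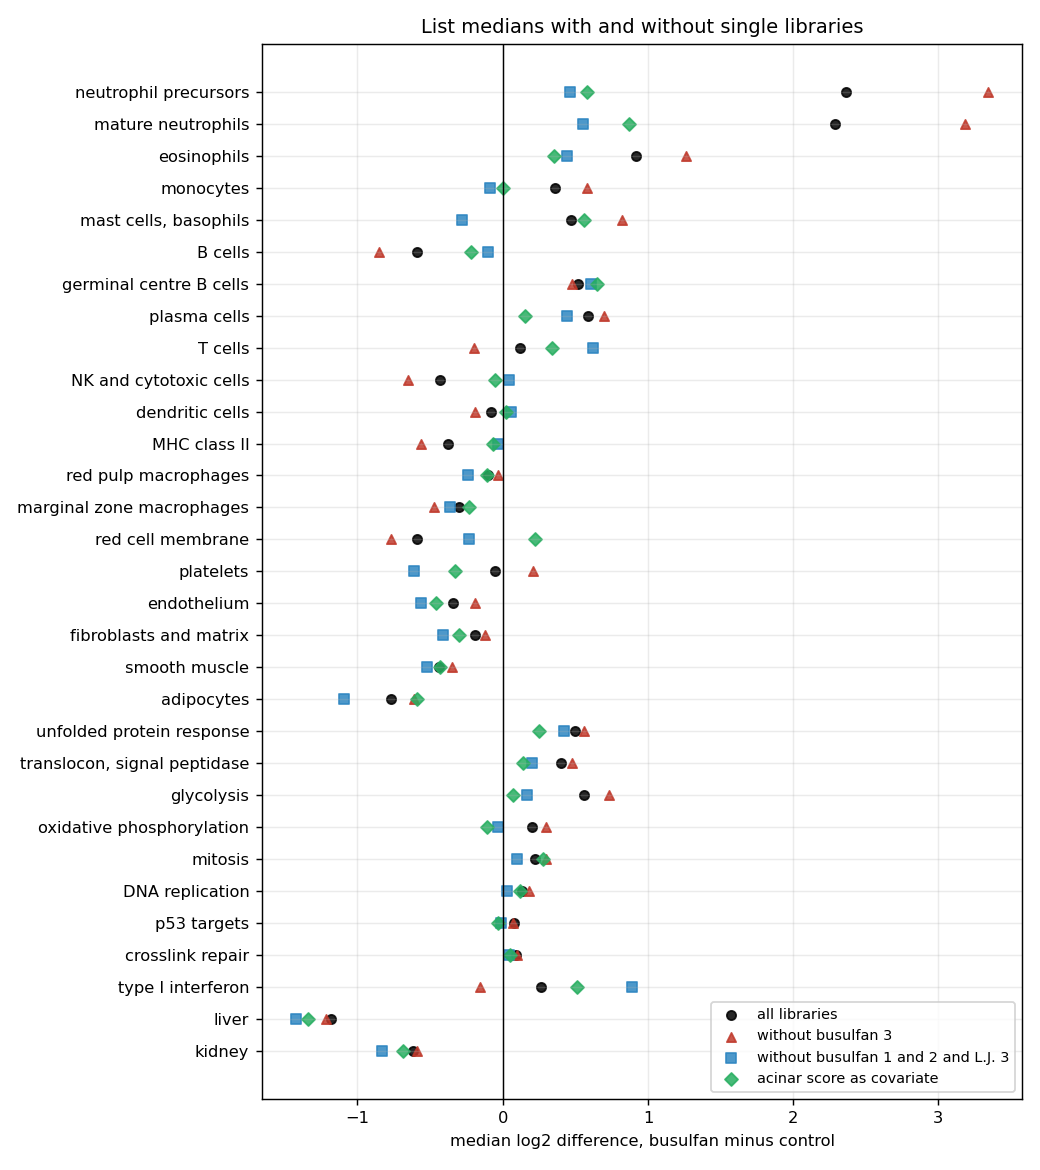
Median log2 difference of each list, busulfan minus control, from all libraries (black), without busulfan 3 (red triangles), without busulfan 1, busulfan 2 and L.J. 3 (blue squares) and with the acinar score as a covariate (green diamonds). Germinal centre, unfolded protein response, endothelium, smooth muscle and liver lists keep their side of 0 in all 4, whereas the red cell membrane list is at -0.59 from all libraries and at 0.22 with the covariate.

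The same drug was also compared beside L.J., as busulfan with L.J. against L.J. alone, a contrast that shares no library with the first. No gene was called there by limma (0%), 724 genes had an unadjusted p below 0.05 (5.57%), and the smallest adjusted p was 0.635. The difference between both busulfan contrasts was tested as an interaction, and again no gene was called (0%), with 1494 at an unadjusted p below 0.05 (11.5%) and a smallest adjusted p of 0.0928. Slpi had 112, 81.1 and 104 FPKM with L.J. and 67.8, 43 and 50.9 FPKM with busulfan and L.J., and Prg2 2.38, 6.72 and 4.31 FPKM with L.J. against 3.68, 2.66 and 2.54 FPKM with both. For both genes all 6 libraries were below the lowest library of busulfan alone. Manf had 86, 74.4 and 98 FPKM with L.J. and 50.8, 50.3 and 60.9 FPKM with both, so it was lower in value with busulfan there (log2 difference -0.66). Gucy1a1 had 13.2, 13.8 and 13.7 FPKM with L.J. and 16.1, 18.5 and 15.2 FPKM with both (log2 difference 0.27), and Postn 10.6, 10.5 and 8 FPKM with L.J. against 8.22, 6.7 and 12.8 FPKM with both.

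The difference between both contrasts was tested only gene by gene, in the interaction. The list medians with busulfan beside L.J. were -0.25 for primary granule genes, -0.43 for later granule genes, -0.09 for eosinophil genes, 0.12 for B cell genes, -0.14 for germinal centre genes and 0.21 for endothelial genes. Unfolded protein response genes were above 0 in 0 of 28, with a median of -0.32. Platelet genes were above 0 in 0 of 22, with a median of -0.79, against -0.05 with busulfan alone. The latter was 0.21 without busulfan 3, -0.33 with the acinar covariate and -0.61 without busulfan 1, busulfan 2 and L.J. 3. Nrgn had 216, 172 and 118 FPKM with L.J. and 62, 57.3 and 75.2 FPKM with both (log2 difference -1.33), so that it was lower in value with busulfan in both contrasts. Acinar scores in these libraries were 3.64, 1.57 and 5.92 with L.J. and 0.56, 0.38 and 2.22 with both, and their part in these medians was not tested.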

How the data were processed

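Spleen RNA was sequenced as 12 libraries in 4 groups of 3. The deposited values are FPKM per gene, in 1 table of the whole series made by the authors; per the submitters' processing notes, the tools and builds named are Bowtie 0.12.2 and mm10. The counting tool, the annotation and the strand were not given in the sources used here. The table lists 26 gene symbols as calendar dates, which were restored by gene number, and 99.2% of its gene numbers are in the RefSeq table (GRCm38.p6) used for names and positions. Values were taken as log2(FPKM + 1), a scale that understates the change of low genes. The 13138 genes whose mean reached 1 FPKM in any of the 4 groups were fitted with limma 3.58.1 (R 4.3.3, trend and robust options), with 1 mean per group over all 12 libraries and Benjamini-Hochberg adjustment over all genes fitted; scripts were tested on simulated data. Tables and plots used Python 3.11.15 with pandas 2.3.3, numpy 2.4.6 and matplotlib 3.10.9.

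The gene lists were written by hand, and members, lists, tests and motifs were chosen with earlier results of these data known. Genes were named by a rule: all called genes, the 20 with the smallest p, the 15 highest and 15 lowest differences among those without overlap and with an unadjusted p below 0.05 (predicted genes aside), of each list the 4 with the smallest p and the 2 with the highest FPKM, and 20 markers. Cxcr2, Ear1, Il5ra, Irf4, Mdm2, Fkbp5 and Sdc1, and the motif holders Prtn3, Ctsg, Pdia6, Dnajc3, Syvn1, Dnajb11 and Herpud1, were chosen outside it after their values were seen. Some genes, 1 called gene included, are not reported here. Deviations from the group mean correlated between control and busulfan libraries of the same number at 0.154, 0.126 and 0.012, so the numbers were not taken as pairs. Alternatives were other scalings, filters and pseudocounts, library weights, no robust option and a replicate block. Others were the acinar score (mean log2(FPKM + 1) of all 40 acinar genes) as a covariate, and fits with libraries left out.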

Additional observations from a re-analysis of the deposited data

Results flagged for a closer look

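In 4 gene lists the scores, mean log2(FPKM + 1) over a list, went opposite ways in the 2 busulfan contrasts without overlap in either: every busulfan library was above every control, and every library with busulfan and L.J. was below every L.J. library. The difference between the contrasts was not tested for a list. For the unfolded protein response list the median log2 difference of busulfan minus control was 0.50, and the scores were 5.63, 5.39 and 5.61 in the controls, 6.29, 5.97 and 6.01 with busulfan, 5.83, 5.81 and 6.20 with L.J. and 5.68, 5.52 and 5.69 with both. Among its genes the interaction was -1.42 (SE 0.19, limma adjusted p = 0.0928) for Manf and -2.04 (SE 0.36, limma adjusted p = 0.129) for Creld2, so neither passed the threshold. The translocon and signal peptidase list had a median of 0.40 and scores of 5.72, 5.60 and 5.65 in the controls and 6.23, 5.97 and 5.90 with busulfan, against 5.83, 5.89 and 6.04 with L.J. and 5.76, 5.67 and 5.74 with both. The glycolysis list had a median of 0.56 and scores of 4.76, 4.64 and 4.89 in the controls and 5.65, 5.18 and 4.90 with busulfan, against 4.88, 4.93 and 5.02 with L.J. and 4.87, 4.74 and 4.85 with both. Its groups were nearly tied at their edges, at 4.90 against 4.89 and at 4.88 against 4.87. The islet list had a median of 1.54 and scores of 0.20, 0.46 and 0.31 in the controls and 4.16, 1.73 and 0.56 with busulfan, against 0.73, 0.29 and 1.83 with L.J. and 0.18, 0.25 and 0.15 with both. Of 18 islet genes 7 passed the limit of 1 FPKM, Ins2 through the busulfan group only. The separation of this list therefore describes it and supports no test. Between the L.J. groups its nearest scores were 0.29 and 0.25, near the floor of the scale. Acinar scores followed the same directions in group means and overlapped between the L.J. groups, at 3.64, 1.57 and 5.92 with L.J. and 0.56, 0.38 and 2.22 with both, and their part was not tested.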

How the results depend on the processing

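Counts of called genes are from limma, 4 for busulfan against control. The count came to 107 with library weights, 24 with no filter on low values, 2 with a mean limit of 5 FPKM, 1 at pseudocount 0.1 and 1 without busulfan 1, busulfan 2 and L.J. 3, where the lone busulfan library is assumed to vary like the other groups. It was 0 with the acinar covariate and 0 in a fit of the 6 libraries compared. Leaving out 1 library gave 0 (without control 2) to 829 (without busulfan 3). No cause was tested. Slpi, Prg2 and Slc34a1 were all among the genes called with library weights, no filter, quantile normalization, median of ratios scaling and without busulfan 3, and Slpi alone with a pseudocount of 0.1. With the replicate block 5 genes were called, these 3 among them. For busulfan with L.J. against L.J. alone the count of 0 became 1 with no filter and ranged from 0 to 1 with 1 library left out. For the difference of contrasts it became 220 with library weights and ranged from 0 to 511 (without busulfan 3). Log2 differences that changed sign were those of Calr (-0.08) and Hba-a1 (0.00) after quantile normalization, of Clec9a (0.05), Fkbp5 (-0.02), Hba-a1 (0.16), Mt1 (-0.29) and Syvn1 (0.01) with the acinar covariate, and of Mcpt8 (-0.03), Mt1 (-0.24), Pgd (-0.02) and Syvn1 (0.23) without busulfan 1, busulfan 2 and L.J. 3. The alternatives that leave out an L.J. library or a library of both agents were added after the data had been seen. Read depth is unknown, so low values carry an error that cannot be given.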
